A study of Mus musculus with 79 samples.

Results

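The 10 genes named by their symbols, Heca, Qk, Ranbp9, Egln1, Usp7, Znrf2, Tada2b, Nfix, Apc and Arid2, are described here across cells sorted from an injured mouse nerve and across the tissue distal to the injury. They are 10 of the 23361 genes in each of the deposited tables. They were selected on measured values, because delayed nerve repair lowered them at day 5 in sorted cells while that fall was gone at day 14. In macrophages that description holds for 8 of them and does not hold for Apc and Arid2, whose levels in the repair groups differed by less at day 5. In the fraction sorted as Schwann cells all 10 genes were lower at day 5, from -0.52 on the log2 scale for Arid2 to -2.19 for Ranbp9. In the distal stump at day 5, a measurement the selection did not use, only Apc and Qk were lower after delayed repair among the genes that passed the test.

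The animals were S100β-eGFP mice of both sexes, in which the human S100β promoter drives green fluorescent protein (GFP), a label of Schwann cells. In delayed repair the tibial nerve was cut and left without a proximal partner for 8 weeks, and a freshly cut common peroneal nerve was then joined to it through a silicone conduit. In immediate repair the same graft was made at once, after a sham incision 8 weeks earlier. Tissue was taken 5 or 14 days after the graft from single animals, without pooling. Macrophages (high for F4/80, CD14, CD16/32 and CD11b) and Schwann cells (GFP-high and negative for the other markers) were sorted from the bridge of new tissue in the conduit, 1000 cells a library, and the distal stump was sequenced as whole tissue at day 5. The stump libraries are named so by their titles and cell type label, while their tissue label names the bridge, as for all samples. The 79 libraries came from 32 animals. Macrophage libraries numbered 9 delayed and 8 immediate at day 5 and 7 and 8 at day 14, Schwann cell fraction libraries 9 and 7 at day 5 and 7 and 8 at day 14, and stump libraries 9 and 7. Each group held 4 males. Females numbered 5 delayed and 4 immediate in macrophages at day 5 and 3 and 4 at day 14. They numbered 5 and 3 in the Schwann cell fraction at day 5, 3 and 4 at day 14, and 5 and 3 in the stump. The age of the mice is not given in the sources used here.

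After a nerve is cut, macrophages enter the bridge and the distal stump, clear debris and guide vessels and Schwann cells across the gap. Schwann cells that lose their axons turn into repair cells, and this state is known to fade when reinnervation is late, which is one reason why delayed repair recovers poorly. The comparison of delayed with immediate repair asks how the cells that meet the regenerating axons differ between these settings.

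The 10 genes belong to several regulatory systems. Egln1 encodes PHD2, the prolyl hydroxylase that marks hypoxia-inducible factors for destruction when oxygen is present. Usp7 encodes a deubiquitinase best known for stabilising MDM2, the ubiquitin ligase of p53, while Znrf2 encodes a membrane-associated RING ubiquitin ligase and Ranbp9 a scaffold of the CTLH ubiquitin ligase. Tada2b encodes an adaptor of the SAGA histone acetyltransferase complex and Arid2 a DNA-binding subunit of the PBAF form of the SWI/SNF chromatin remodeller. Nfix is a transcription factor of the nuclear factor I family, and Qk (quaking) is an RNA-binding protein that controls splicing and stability of RNA and is needed in myelinating glia. Apc is the scaffold of the complex that destroys beta-catenin and so restrains Wnt signalling. Heca is the mouse counterpart of the fly gene headcase, which restrains growth and division of progenitor cells.

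In the GENCODE annotation of GRCm38, 9 of the genes lie on 8 chromosomes, at chr10:17868612-17948067 (Heca), chr17:10202601-10319854 (Qk), chr13:43402675-43481282 (Ranbp9), chr8:124908587-124949324 (Egln1), chr16:8689595-8792308 (Usp7), chr6:54816916-54893500 (Znrf2), chr5:36473670-36484285 (Tada2b), chr8:84699876-84800344 (Nfix) and chr15:96287518-96404992 (Arid2). Of these only Egln1 and Nfix share a chromosome, and no sequence is shown for Apc. RefSeq promoter windows of 300 bases, from 250 before to 50 after an annotated start on GRCm38.p6, were found for 8 of the 10 genes by symbol, with 4 windows for Nfix and 1 for each of the others. Apc and Arid2 had no entry.

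The 5 promoters shown are those of the described genes under -1 (log2) in both kinds of sorted cell at day 5. The selection of the genes did not use sequence. Each is printed 5′ to 3′ on the strand of the gene, at chr10:17948018-17948317 minus strand (Heca), chr17:10319312-10319611 minus strand (Qk), chr13:43480924-43481223 minus strand (Ranbp9), chr8:124949205-124949504 minus strand (Egln1) and chr6:54816666-54816965 plus strand (Znrf2). Capitals mark GC boxes, GGGCGG on either strand.
Heca: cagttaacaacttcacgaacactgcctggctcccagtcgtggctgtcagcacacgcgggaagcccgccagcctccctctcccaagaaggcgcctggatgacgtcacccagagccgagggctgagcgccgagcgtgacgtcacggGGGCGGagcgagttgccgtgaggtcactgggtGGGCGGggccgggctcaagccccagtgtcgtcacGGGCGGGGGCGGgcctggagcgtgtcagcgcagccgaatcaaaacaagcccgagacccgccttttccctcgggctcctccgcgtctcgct
Qk: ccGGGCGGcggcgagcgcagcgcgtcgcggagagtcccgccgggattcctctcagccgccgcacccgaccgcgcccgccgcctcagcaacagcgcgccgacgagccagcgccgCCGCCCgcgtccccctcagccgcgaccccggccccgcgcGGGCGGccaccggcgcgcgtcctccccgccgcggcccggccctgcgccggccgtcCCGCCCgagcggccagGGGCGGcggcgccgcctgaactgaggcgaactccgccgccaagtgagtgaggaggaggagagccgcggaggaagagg
Ranbp9: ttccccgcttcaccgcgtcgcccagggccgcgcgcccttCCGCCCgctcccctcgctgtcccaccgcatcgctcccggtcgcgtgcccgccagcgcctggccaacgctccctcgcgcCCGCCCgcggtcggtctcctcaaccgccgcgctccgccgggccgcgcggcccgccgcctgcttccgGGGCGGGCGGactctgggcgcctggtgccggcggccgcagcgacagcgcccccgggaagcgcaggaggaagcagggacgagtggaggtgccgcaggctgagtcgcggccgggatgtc
Egln1: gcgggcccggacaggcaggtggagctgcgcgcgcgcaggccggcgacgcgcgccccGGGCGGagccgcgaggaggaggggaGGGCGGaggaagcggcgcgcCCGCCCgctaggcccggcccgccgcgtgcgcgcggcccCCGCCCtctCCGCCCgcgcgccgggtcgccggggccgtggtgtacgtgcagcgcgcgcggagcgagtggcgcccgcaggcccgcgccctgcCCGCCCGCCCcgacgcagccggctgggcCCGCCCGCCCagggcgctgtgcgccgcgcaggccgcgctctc
Znrf2: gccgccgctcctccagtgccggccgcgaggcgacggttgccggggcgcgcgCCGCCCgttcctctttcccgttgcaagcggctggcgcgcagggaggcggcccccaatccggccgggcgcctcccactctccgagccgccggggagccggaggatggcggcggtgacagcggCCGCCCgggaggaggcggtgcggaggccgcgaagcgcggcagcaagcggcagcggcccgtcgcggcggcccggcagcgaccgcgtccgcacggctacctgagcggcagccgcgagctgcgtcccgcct
These windows are made mostly of G and C. The share of G and C was 86% for Egln1, 81.7% for Qk, 80% for Znrf2, 79.3% for Ranbp9 and 68.3% for Heca. The median was 52.7% over 32851 promoter windows of the same length. Of all windows 12% reached the share of Heca and 1.3% that of Ranbp9. Among the promoters not printed it was 86% for Usp7, 74.3% for Tada2b and 44.3 to 57.3% for the 4 windows of Nfix. The windows of Qk, Ranbp9, Usp7 and Nfix lie wholly inside the genes as GENCODE draws them, and those of Heca, Egln1, Znrf2 and Tada2b span the gene's first base. A GC box was found in 8 of the 11 windows of these genes and in 35.7% of all windows, counting overlapping matches on both strands, with 9 copies in the Egln1 window and 5 in that of Qk. The core of the hypoxia response element, ACGTG on either strand, was found in the windows of Egln1 and Usp7 and in 19.6% of all windows. The cAMP response element, TGACGTCA, had 2 copies in the Heca window and in 1.79% of all windows. The E-box CACGTG (7.15% of all windows, and 1 form in which ACGTG occurs) and the TATA letters TATAAA (13.6%) were in none of the 11 windows. The ETS letters CCGGAAG were in 2 of the 11 and in 8.86% of all windows, and the repeat CGGCGGCGG in 2 of the 11 and in 3.59%. These are matches of letters only, and nothing was measured here of what binds there.

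Total counts per library ran from 14928748 to 28499405 in macrophages, 11614940 to 30796825 in the Schwann cell fraction and 3898778 to 9212710 in the stump, and 0 pairs of libraries held identical values. Levels are given as CPM (counts scaled to a common library total) on library sizes scaled by TMM, a normalisation that assumes most genes do not differ. A gene was tested where at least 6 of the libraries compared held at least 5 CPM, with edgeR's quasi-likelihood test and Benjamini-Hochberg adjustment over all genes tested. Macrophage libraries held 9 of 10 listed macrophage markers, all 9 above 5 CPM, in every group. The Schwann cell fraction went against its label. At day 5 its libraries held 11516 to 24093 CPM of Cd74, 5690 to 12699 CPM of Ccr7 and 395 to 1560 CPM of Flt3, genes of dendritic cells, but 0 to 25.5 CPM of S100b and 0 to 166 CPM of Sox10, the defining Schwann cell genes. The summed dendritic cell list had a median of 34060 CPM after delayed and 40054 CPM after immediate repair, and the Schwann cell list 374 and 737 CPM. The name Schwann cell fraction therefore stands for the sort and not for the cell type, and in 2 delayed libraries of day 5 Sox10 was under 5 CPM.

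In macrophages at day 5, 8 of the 10 genes were lower after delayed repair in all 9 delayed animals relative to the immediate mean, by -0.67 to -1.88 (log2). These are the values that chose the genes, so they are given as a description without a test. Of the 10 genes, 8 passed the filter on low values. Tada2b and Nfix did not, and their differences come from a fit without the filter. Over all 8409 genes tested, 3 (0.0357%) passed an adjusted p of 0.05 with edgeR, 17 with DESeq2, and 435 were at an unadjusted p under 0.05, with a median log2 difference of 0.01. Nothing is read from that share for genes chosen on the same contrast. The median of the 8 genes tested was -1.39, and it ran from -1.58 to -1.25 with each library left out in turn, being lowest without delayed replicate 9 and highest without immediate replicate 8.

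Heca stood at 1.90, 6.74 and 8.70 CPM (lowest, median and highest of 9) after delayed and at 10.8, 16.3 and 30.8 CPM after immediate repair (n = 8), with a log2 difference of -1.52 (SE 0.25). All 9 delayed libraries were below the lowest immediate one, which held for 1 of 8409 genes tested (0.0119%), Heca itself. Qk, an abundant transcript of these cells, was at 58.7, 77.3 and 188 CPM after delayed and 110.1, 241 and 379 CPM after immediate repair, a difference of -1.37 (SE 0.27). Here 7 of the 9 delayed libraries lay below every immediate one, and delayed replicates 4 and 9 reached into the lower immediate values. Egln1, the oxygen sensor, was at 3.26, 11 and 17.5 CPM after delayed and 11.4, 31.0 and 118 CPM after immediate repair, a difference of -1.88 (SE 0.43). The immediate libraries were spread widely, since replicate 8 alone held 118 CPM and the next, replicate 5, 63.8 CPM. Without immediate replicate 8 the difference of Egln1 was -1.42.

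The genes of the ubiquitin system followed. Ranbp9 was at 6.21, 10.5 and 21.8 CPM after delayed and 9.42, 29.3 and 49.9 CPM after immediate repair, a difference of -1.402 (SE 0.32), with 4 delayed libraries below the lowest immediate one. Znrf2 was at 6.77, 13.9 and 48.2 CPM after delayed and 18.1, 77.5 and 103 CPM after immediate repair, a difference of -1.64 (SE 0.40). For Znrf2 the delayed libraries were themselves divided, with replicates 4, 5 and 9 at 33.9 to 48.2 CPM and the other 6 at 6.77 to 16.4 CPM. Usp7, the deubiquitinase, was at 16.9, 28.0 and 36.8 CPM after delayed and 30.2, 40.8 and 69.7 CPM after immediate repair, and its difference of -0.67 (SE 0.18) was the smallest of these 8 genes.

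Among the chromatin and DNA-binding genes, Tada2b was at 0.868, 2.89 and 4.22 CPM after delayed and 3.40, 6.93 and 16.0 CPM after immediate repair, -1.56 (SE 0.34) without the filter. Nfix was near the limit of detection in delayed macrophages, with 0.0423, 1.15 and 2.14 CPM against 1.34, 4.06 and 7.29 CPM, a difference of -1.87 (SE 0.46) without the filter. The lowest of these values is 1 count in delayed replicate 1, under the floor of 3 counts that a library would need. Arid2 was at 8, 13 and 15.7 CPM after delayed and 7.74, 10.7 and 21.6 CPM after immediate repair, a difference of 0.06 (SE 0.19), with 3 of 9 delayed libraries below the immediate mean. Apc was at 10.1, 21.1 and 25.4 CPM after delayed and 14.5, 20.6 and 32.3 CPM after immediate repair, a difference of -0.26 (SE 0.19). The groups of both genes overlapped, and for Apc 8 of 9 delayed libraries were below the immediate mean and 2 below every immediate library.

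At day 14 the repair groups of macrophages differed less in most of the 10 genes, and most were now higher after delayed repair. The log2 differences ran from -0.10 (SE 0.17) for Arid2 to 0.35 (SE 0.23) for Nfix. Their median was 0.21 against 0.001 over all genes. Of the 10, 8 were above 0, where 49.6% of all genes were below 0. For Usp7 (0.33, SE 0.15) and Qk (0.25, SE 0.13) all 7 delayed libraries were above the immediate mean. All groups overlapped. Heca was at 19.1, 25.1 and 32.6 CPM after delayed (n = 7) and 11.8, 22.2 and 34.0 CPM after immediate repair (n = 8), Qk at 303, 344 and 376 against 172, 289 and 374 CPM, and Znrf2 at 68.7, 83.2 and 98.4 against 42.0, 74.8 and 87.6 CPM. The delayed animals of day 14 thus had higher medians than the immediate animals of either day for these 3 genes. With edgeR 0 of 8589 genes tested (0%) passed in this comparison, 0 with DESeq2, and 190 were at an unadjusted p under 0.05.

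**Figure D1:**
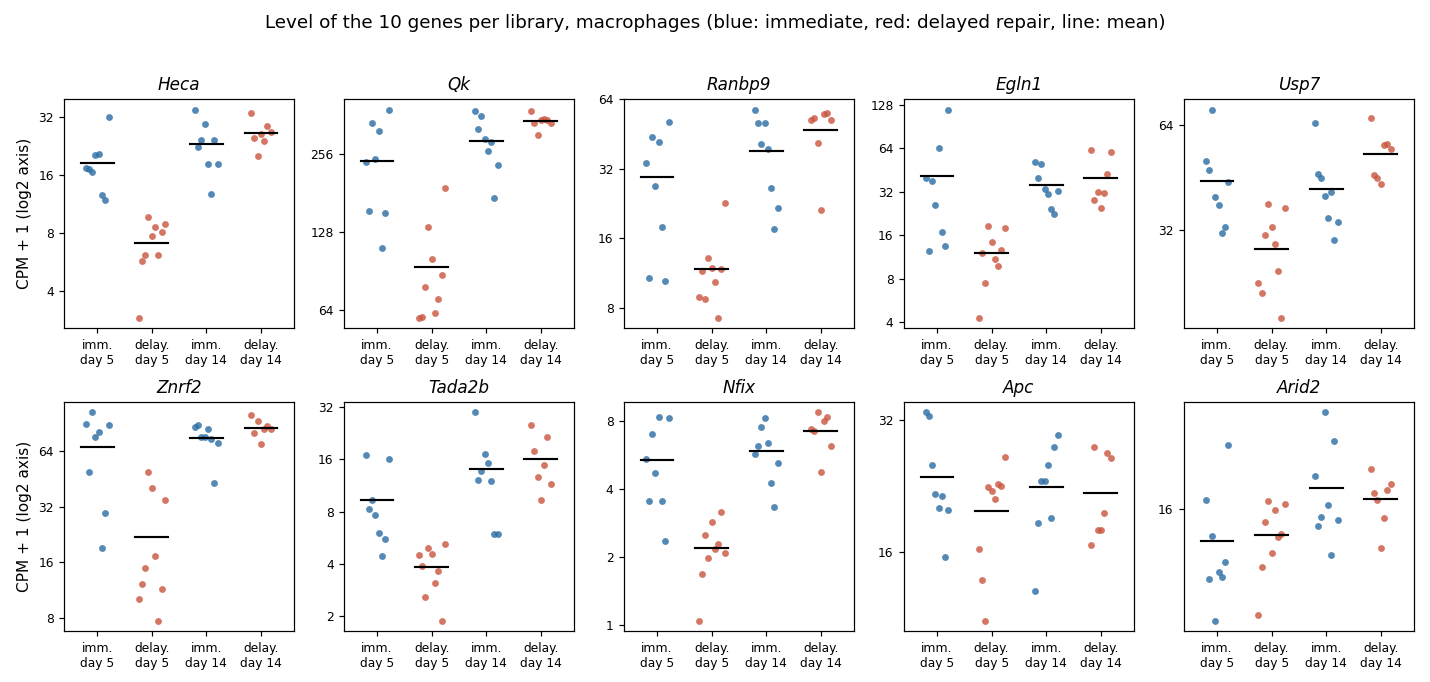
Level of each gene in every macrophage library, as CPM + 1 on a log2 axis, by repair group and day, with immediate libraries in blue, delayed libraries in red and a line at the group mean. For 8 genes the median of the delayed libraries of day 5 is below those of the other 3 groups, but only for Heca (1.90 to 8.70 CPM against 10.8 CPM or more) do they not overlap the immediate libraries of day 5.

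The change of the repair difference between the days, the interaction of repair with day, was 1.003 (SE 0.24) for Usp7, between 1.63 (SE 0.32) for Qk and 2.22 (SE 0.52) for Nfix for another 7 genes, 0.21 (SE 0.27) for Apc and -0.15 (SE 0.26) for Arid2. All 10 genes were tested there, and 2 of the 8949 genes tested (0.0223%) passed with edgeR, 9 with DESeq2, and 323 at an unadjusted p under 0.05. The interaction uses the libraries of both contrasts above and adds no separate evidence.

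In the Schwann cell fraction at day 5, all 10 genes were lower after delayed repair, with a median of -1.41 (log2) against -0.01 over the 9604 genes tested, and for 9 of them all 9 delayed libraries were below the immediate mean. Of all genes tested, 0 (0%) passed with edgeR, 14 with DESeq2, and 505 were at an unadjusted p under 0.05. Delayed libraries lay wholly below the immediate ones for 3 genes (0.0312%), none of them among the 10 described. These differences too were used to choose the genes and are not tested. The macrophage marker list summed to a median of 3187 CPM after delayed and 922 CPM after immediate repair in these libraries, the fibroblast list to 586 and 1820.3 CPM, and the part of these cells in the differences was not tested. Without the 2 libraries of low Sox10, the median over the 10 genes was -1.42.

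Ranbp9 was at 6.92, 11.1 and 27.1 CPM after delayed (n = 9) and 17.6, 37.5 and 159.5 CPM after immediate repair (n = 7), a difference of -2.19 (SE 0.44). Of the 9 delayed libraries 8 were below the lowest immediate one, and immediate replicates 1 and 3 stood apart at 159.5 and 127 CPM. Heca was at 5.61, 11.4 and 48.7 CPM after delayed and 9.77, 48.8 and 211 CPM after immediate repair, a difference of -2.06 (SE 0.55) that was -1.48 without immediate replicate 3. That library held 211 CPM and the next highest 66.8 CPM. Qk was at 26.8, 56.6 and 176 CPM after delayed and 112, 193 and 370 CPM after immediate repair, -1.37 (SE 0.34), and here 7 delayed libraries lay below every immediate one. Its difference ran from -2.17 to -1.19 over 11 other analyses.

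Nfix was at 2.18, 3.28 and 8.47 CPM after delayed and 6.35, 12.6 and 16.3 CPM after immediate repair, a difference of -1.45 (SE 0.38). Only delayed replicate 1 reached the range of the immediate libraries. Tada2b was at 3.38, 6.49 and 12 against 4.52, 14.8 and 63.0 CPM, -1.79 (SE 0.50), and Egln1 at 4.32, 9.59 and 20.7 against 7.46, 20.3 and 88.4 CPM, -1.60 (SE 0.47). The groups of both genes overlapped, with 1 delayed library of Tada2b and 2 of Egln1 below every immediate one, and Egln1 was at -1.10 without immediate replicate 1. Znrf2 was at 2.69, 9.21 and 29.8 against 19.6, 37.0 and 55.2 CPM, -1.36 (SE 0.46), and Usp7 at 19.3, 28.7 and 43.8 against 23.5, 49.2 and 105 CPM, -0.84 (SE 0.25). The difference of Usp7 ran from -1.40 to -0.69 over 11 other analyses.

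Apc and Arid2, whose differences in macrophages were the smallest of the 10, were lower in this fraction. Apc was at 8.88, 14.9 and 28.9 CPM after delayed and 14.4, 36.9 and 59.9 CPM after immediate repair, -1.04 (SE 0.32). Arid2 was at 13.3, 35.8 and 50.6 CPM after delayed and 34.5, 43.5 and 71.1 CPM after immediate repair, -0.52 (SE 0.25), the smallest difference of the 10. Over 11 other analyses Arid2 ran from -1.28 to -0.36 and Apc from -1.30 to -0.80. For each of them 4 delayed libraries were below the lowest immediate one.

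**Figure D2:**
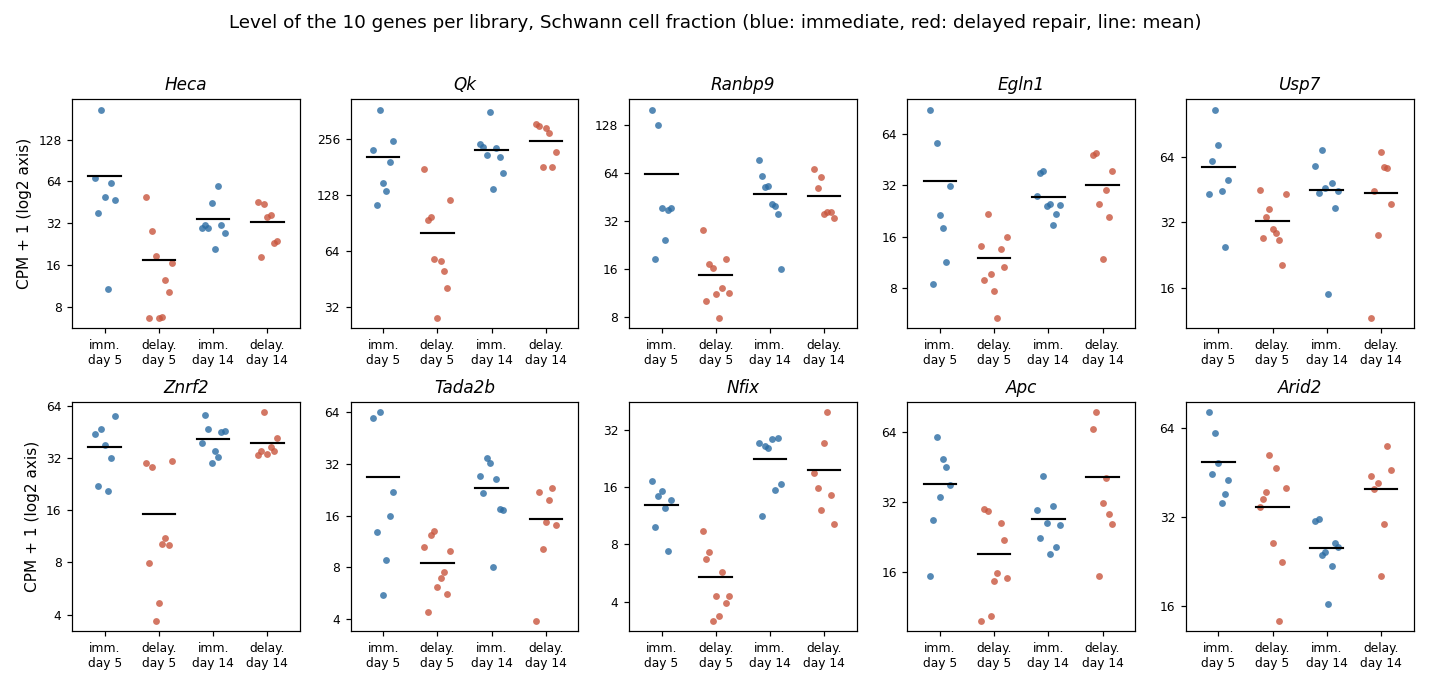
Level of each gene in every library of the Schwann cell fraction, as CPM + 1 on a log2 axis, by repair group and day, with immediate libraries in blue, delayed libraries in red and a line at the group mean. The median of the delayed libraries of day 5 is the lowest of the 4 groups for 9 of the 10 genes, Arid2 being the exception, and the immediate libraries of day 5 spread widely for Heca, at 9.77 to 211 CPM.

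At day 14 the median difference over the 10 genes in this fraction was -0.04, and 6 of 10 were below 0. Heca was at 17.1, 34.6 and 44.5 CPM after delayed (n = 7) and 19.7, 29.3 and 58.5 CPM after immediate repair (n = 8), and Qk at 179.6, 276 and 309.7 against 138, 218 and 359 CPM. The groups overlapped for all 10 genes. Apc at 0.62 (SE 0.31) and Arid2 at 0.67 (SE 0.21) were higher after delayed repair, the opposite of their sign at day 5. The value of Apc was 0.39 without delayed replicate 2 and 0.19 in limma-voom, and no test was made of it. Tada2b stayed lower at -0.62 (SE 0.38). With edgeR 0 of 10226 genes (0%) passed, 3 with DESeq2, and 373 were at an unadjusted p under 0.05. The interaction of repair with day was above 0 for all 10 genes, from 0.79 (SE 0.43) for Usp7 to 2.15 (SE 0.54) for Ranbp9, where 0 of 10923 genes (0%) passed with edgeR, 9 with DESeq2, and 524 were at an unadjusted p under 0.05.

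**Figure D3:**
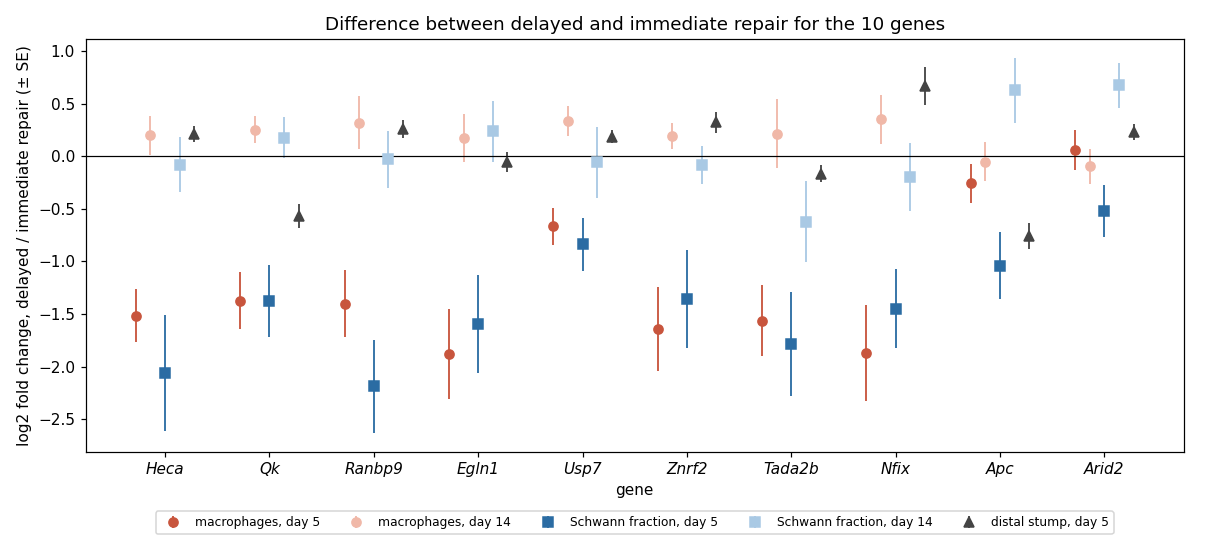
Log2 difference of delayed from immediate repair (± SE) for each gene in macrophages and the Schwann cell fraction at days 5 and 14 and in the distal stump at day 5, with Tada2b and Nfix in macrophages at day 5 taken from the fit without the filter. The day 5 values of sorted cells lie well below 0 for 8 genes in both kinds of cell, the day 14 values lie on both sides of 0 (-0.62 to 0.67 in the Schwann cell fraction), and the stump values run from -0.76 for Apc to 0.67 for Nfix.

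The distal stump gave a reading of the same genes in whole tissue that did not enter the selection, so it was tested. Here 7 of the 10 genes passed at day 5, 5 of them higher and 2 lower after delayed repair, where 26.3% of the 12229 genes tested passed, 12.8% higher and 13.5% lower. The list as a whole did not fall, with a median of 0.20 (log2) against 0.02 over all genes, and 4 of 10 genes were below 0 against 47.6% of all genes. In tissue, fewer cells of a type and less RNA per cell cannot be told apart. The delayed stumps held less of the Schwann cell markers, at -4.86 (SE 0.42, adjusted p = 8.9e-07) for S100b and -2.03 (SE 0.35, adjusted p = 0.000524) for Sox10. They held more of the macrophage marker Emr1, at 0.84 (SE 0.28, adjusted p = 0.0334). The Schwann cell list summed to a median of 380.1 CPM (230 to 926) after delayed and 2581 CPM (1646 to 3532) after immediate repair, with 0 of its 10 genes at 0 throughout. The macrophage list summed to 4277 CPM (3129 to 5333) and 2541 CPM (1404 to 5342), and the part of these shifts in the results for the 10 genes was not tested.

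Apc and Qk fell in the delayed stump. Apc was at 149, 220.1 and 278 CPM after delayed (n = 9) and 291, 348 and 506 CPM after immediate repair (n = 7), a difference of -0.76 (SE 0.13, adjusted p = 0.000421). All 9 delayed stumps were below the lowest immediate one, as for 4.33% of all genes tested. Qk was at 433, 459 and 685 CPM after delayed and 615, 743 and 923 CPM after immediate repair, -0.57 (SE 0.12, adjusted p = 0.00201), with 8 of 9 delayed stumps below every immediate one and delayed replicate 1 within the immediate range. Both calls held with each library left out in turn and in all 9 other analyses.

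Nfix rose in the delayed stump, where it had been lower in sorted cells. It was at 42.7, 80.7 and 103 CPM after delayed and 29.5, 51.2 and 58.6 CPM after immediate repair, 0.67 (SE 0.18, adjusted p = 0.0119), above the immediate mean in 8 of 9 delayed stumps. The call held with each library left out in turn and was lost with the replicate number as a block (0.56, adjusted p = 0.101 in edgeR). None of the 10 genes had all its delayed stumps above all the immediate ones, which was so for 0.728% of all genes.

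Smaller rises were called for 4 genes, each above the immediate mean in 8 of 9 delayed stumps. Znrf2 was at 49.0, 61.9 and 87.4 CPM after delayed and 46.4, 51.9 and 57.4 CPM after immediate repair, 0.32 (SE 0.10, adjusted p = 0.0279). Ranbp9 was at 53.4, 67.6 and 78.6 against 54.2, 56.3 and 64.0 CPM, 0.26 (SE 0.08, adjusted p = 0.0331). The groups of both genes overlapped at their lower ends. Arid2 was at 111, 133 and 154 against 102, 116 and 125 CPM, 0.23 (SE 0.07, adjusted p = 0.0292), and Usp7 at 175, 200.3 and 219 against 169.5, 182 and 190.4 CPM, 0.18 (SE 0.06, adjusted p = 0.0322). These 4 calls lay close to the threshold. They were lost for Usp7, Znrf2 and Arid2 with the replicate number as a block (adjusted p = 0.104, 0.0796 and 0.0561 in edgeR), for Ranbp9, Usp7 and Arid2 with library size scaling (0.0626, 0.0915 and 0.0721) and for all 4 with no filter (0.0757 to 0.153). Of 9 other analyses the call held in 5 for Usp7, 6 for Arid2 and 7 each for Ranbp9 and Znrf2. Each was lost on leaving out any one of several libraries, with differences of like size (0.16 to 0.32). That of Ranbp9 was lost without any one of delayed replicates 1, 4, 6 and 8 or immediate replicates 1, 2, 4, 7 and 8 (adjusted p = 0.0536 to 0.0801 in edgeR). That of Usp7 was lost without delayed replicate 1, 2, 4 or 6 or immediate replicate 2, 4, 6, 7 or 8 (0.0553 to 0.0917). Arid2 was lost without delayed replicate 4 or 7 or immediate replicate 2, 4, 6, 7 or 8 (0.0521 to 0.0752), and Znrf2 without delayed replicate 4 or immediate replicate 2, 6, 7 or 8 (0.0523 to 0.0793).

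The remaining 3 genes did not pass. Heca was at 46.2, 50.9 and 60.01 CPM after delayed and 41.0, 45.2 and 52.7 CPM after immediate repair, 0.21 (SE 0.08, adjusted p = 0.0503). All 9 delayed values were above the immediate mean, and Heca passed without delayed replicate 1, 3 or 9 or immediate replicate 4 (adjusted p = 0.0303 to 0.0499 in edgeR). It also passed in DESeq2 (0.0409), limma-voom (0.0233) and with Cap1 (0.0298) or the level of GC-rich genes (0.0456) as a covariate, and did not in the other 5 analyses (adjusted p = 0.061 to 0.170). Tada2b was at 20.4, 23.3 and 28.4 CPM after delayed and 24.3, 27.4 and 29.6 CPM after immediate repair, -0.17 (normal 95% interval -0.32 to -0.01, not adjusted, adjusted p = 0.127). Egln1 was at 41.6, 50.1 and 64.4 against 49.7, 53.9 and 70.4 CPM, -0.05 (normal 95% interval -0.24 to 0.14, adjusted p = 0.719).

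**Figure D4:**
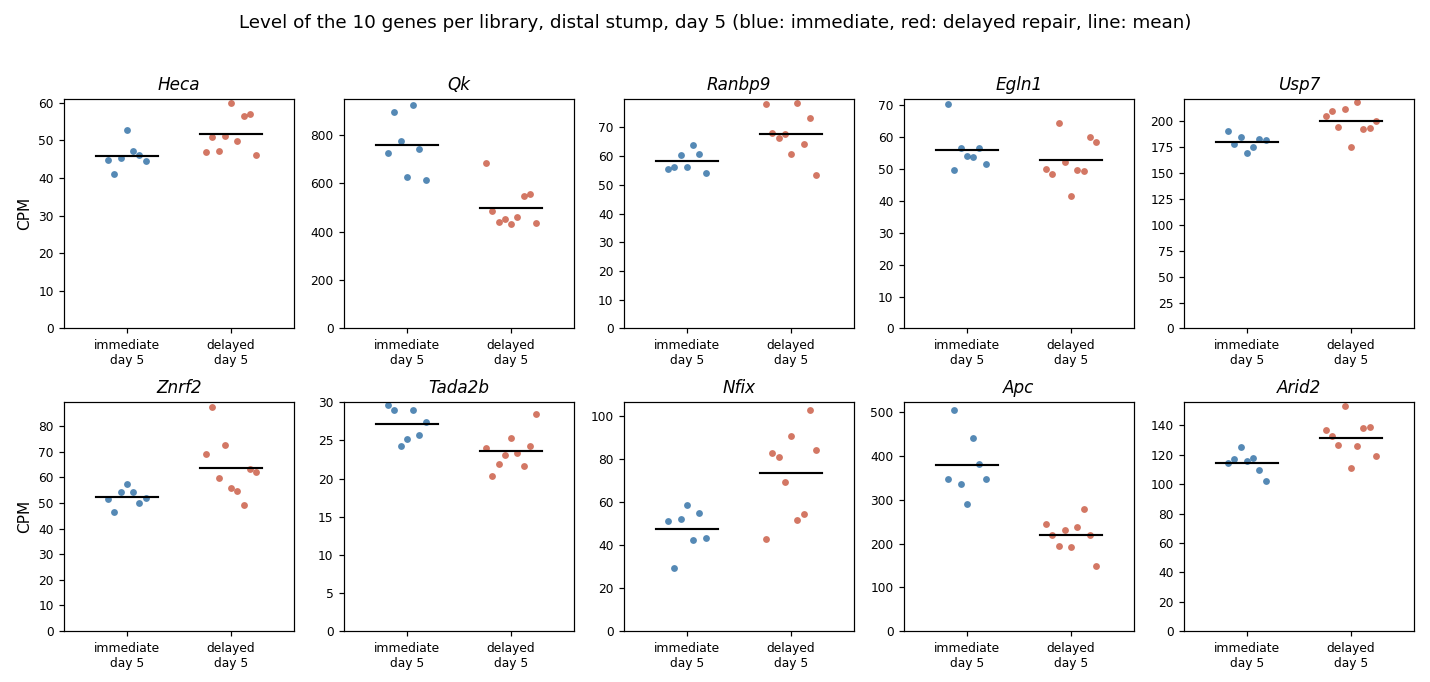
Level of each gene in every distal stump library at day 5, in CPM on axes that start at 0, with immediate libraries in blue, delayed libraries in red and a line at the group mean. Delayed stumps are wholly below immediate ones for Apc (149 to 278 against 291 to 506 CPM), mostly below for Qk, and reach higher values for Nfix.

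The genes also varied together within groups. With group means removed, the correlation of log2(CPM + 1) over the 32 macrophage libraries was above 0 for all 28 pairs of the 8 genes other than Apc and Arid2, from 0.31 to 0.82 with a median of 0.61. Qk and Znrf2 were the closest pair at 0.82, followed by Ranbp9 and Egln1 at 0.79. Pairs with Apc ran from -0.03 to 0.20, and the 9 pairs with Arid2 were all above 0, from 0.19 to 0.67 (Heca) with a median of 0.37. In the Schwann cell fraction (31 libraries) the same 28 pairs ran from 0.04 to 0.71 with a median of 0.40. In the 16 stump libraries 13 of the 28 were above 0 and the median was -0.03. The points of each correlation share a library, its depth and its amplification, so these values are a description.

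Some libraries were low or high for most of the genes at once. In macrophages of immediate repair at day 5, replicate 6 was below its group median for all 10 genes and replicate 7 for 9, whereas replicates 1, 3 and 8 were above it for 9. In delayed macrophages of day 5, replicate 1 was below for 9 genes and replicates 4 and 9 above for 9. In the Schwann cell fraction of day 5, delayed replicate 3 and immediate replicate 3 were above their group medians for all 10, and immediate replicate 5 was below for 9. The level in macrophages of an animal did not track that in its Schwann cell fraction beyond the spread. Over 31 animals and with group means removed, Pearson's r ran from -0.37 to 0.39 over the 10 genes, and the lowest adjusted permutation p was 0.189 for r and 0.156 for Spearman's rho. Ranbp9 had r = 0.39 (permutation p = 0.092, and r = 0.27 without the 2 animals farthest from the median) and rho = 0.35 (permutation p = 0.078). Arid2 had r = 0.29 (permutation p = 0.0947, and r = 0.41 without the 2 farthest) and rho = 0.43 (permutation p = 0.0196). Usp7 had the smallest p for r (r = 0.33, permutation p = 0.0598, r = 0.20 without the 2 farthest, rho = 0.35, permutation p = 0.0507). Heca (r = -0.37, permutation p = 0.0704, r = -0.10 without the 2 farthest) and Apc (r = -0.32, permutation p = 0.0896, r = -0.25 without the 2 farthest) were below 0. Tada2b had r = 0.27 (permutation p = 0.168, and r = 0.26 without the 2 farthest) and rho = 0.39 (permutation p = 0.0432).

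The gene most like each of the 8 over all 32 macrophage libraries, repair groups and days included, was Cul3, the scaffold of a family of ubiquitin ligases, for Qk (r = 0.93) and Znrf2 (r = 0.96), Brd1, a chromatin reader, for Ranbp9 (0.88) and Egln1 (0.85), Purb for Heca (0.88), Osbp for Usp7 (0.86), Tshz1 for Tada2b (0.84) and Fam120a for Nfix (0.87). Among the 100 genes most like each of these 8, out of 8949, were the other 7. For Apc the closest gene was Rnf10 at 0.60 and none of the 10 was among its 100, and for Arid2 it was Kdm5a at 0.76 with 1. These values include the repair difference that chose the genes.

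Other genes were also below 0 in both sorts at day 5. Of the genes most alike, Cul3 differed by -1.30 (SE 0.34) in macrophages and -0.94 (SE 0.34) in the Schwann cell fraction, Purb by -0.57 (SE 0.16) and -0.89 (SE 0.22) and Fam120a by -0.56 (SE 0.24) and -1.12 (SE 0.30). In the Schwann cell fraction Osbp (-0.49, SE 0.34) and Tshz1 (-0.95, SE 1.02) were within 2 SE of 0, against -1.10 (SE 0.32) and -0.91 (SE 0.30) in macrophages. At day 14 these 5 genes ran from 0.02 to 0.34, and in the stump Tshz1 was lower (-0.56, adjusted p = 0.000572) while the other 4 did not pass. Of 8095 genes tested in both kinds of sorted cell, 21 were under -1 (log2) in macrophages and 93 in the Schwann cell fraction, and 10 were in both lists, a limit that 5 of the 10 genes met, namely Heca, Qk, Ranbp9, Egln1 and Znrf2. The other 5 were Brd1, Csnk2a2, Il33, Pmepa1 and Tmem87a. In the stump Tmem87a was higher after delayed repair (0.33, SE 0.08, adjusted p = 0.00561), and the other 4 ran from -0.27 to 0.13 and did not pass.

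Most of these genes had transcript starts rich in G and C. The first 500 bases of the transcript held 83.4% G and C for Qk, 81.4% for Ranbp9, 81.2% for Znrf2, 81% for Egln1, 80% for Heca and 76.8% for Tada2b, against a median of 58% over 7869 genes tested in macrophages at day 5. Of those genes 0.356% reached the value of Heca and 0.0254% that of Qk. Usp7 at 50.6%, Arid2 at 55%, Nfix at 59.2% and Apc at 61.4% lay within the common range. For Usp7 this value, from 1 GENCODE transcript, stands beside 86% in its RefSeq promoter window, which lies at another start.

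Values of other genes with such starts are given beside these as a description, since the 10 genes were chosen for large differences in the same contrasts and unselected genes would differ less whatever their composition. In macrophages at day 5 the 193 other genes with 75 to 80% G and C had a median difference of -0.04 and the 23 with 80% or more a median of -0.15, with 10th percentiles of -0.35 and -0.53. Among libraries of the Schwann cell fraction these medians were -0.14 and -0.21, with 10th percentiles of -0.92 and -0.82. In the stump, whose libraries were made by another method, they were 0.06 and 0.05. In sorted cells at day 14 they were 0.008 and -0.008 in macrophages and 0.12 and 0.13 in the Schwann cell fraction. The part of library preparation in these values was not tested. The mean log2 level of other genes with at least 75% G and C had a median of 4.82 in delayed and 4.92 in immediate macrophages of day 5, and 4.65 and 4.89 in the Schwann cell fraction. With that level as a covariate, an analysis added after the data were seen, the median over the 10 genes was -1.14 in macrophages (8 tested) and -1.44 in the Schwann cell fraction at day 5.

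**Figure D5:**
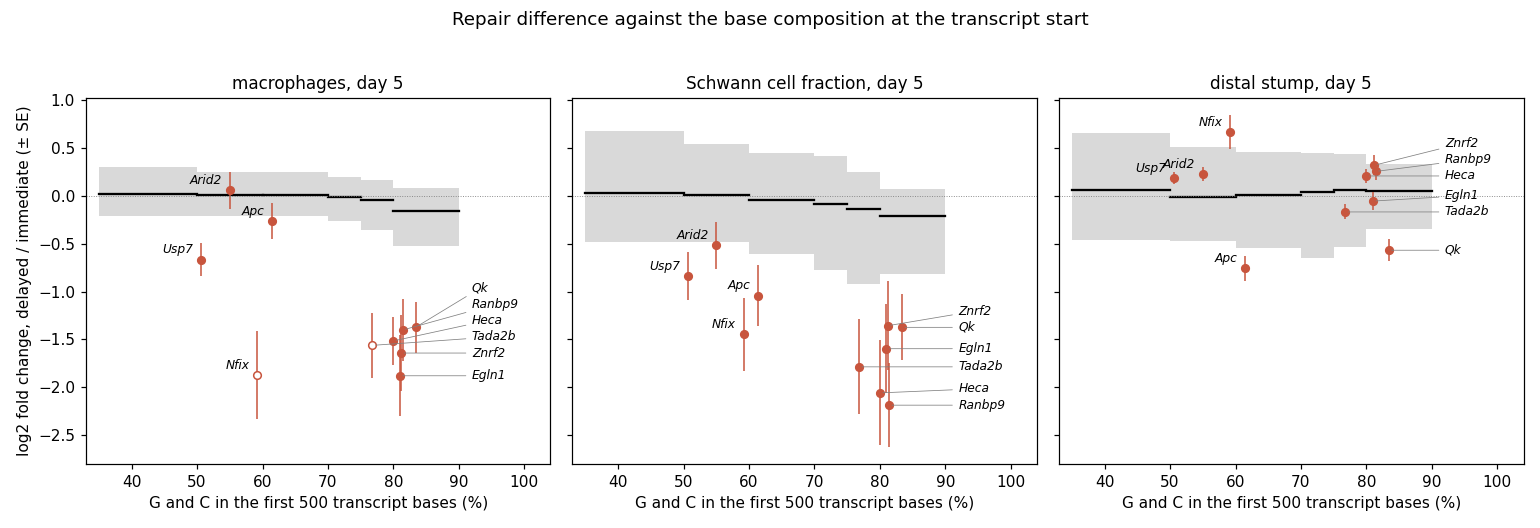
Log2 difference of delayed from immediate repair (± SE) against the share of G and C in the first 500 transcript bases, with the 10 genes as points (open where the fit without the filter was used) and, for all other genes, the median (black line) and the 10th to 90th percentile (grey) in bins of that share. In sorted cells the points are the differences that chose the genes, so their place below the grey range is no finding. In the stump 5 of the 6 genes with 76.8 to 83.4% lie within it.

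Cap1, a gene with distinct levels between animals in sorted cells, also moved with the repair groups there at day 5. In macrophages of day 5 it was at 217 to 272 CPM in 7 of the 9 delayed animals, at 46.2 and 55.2 CPM in delayed replicates 7 and 8, and at 33.9 to 50.03 CPM in all 8 immediate animals. At day 14 its medians were 50.3 and 52 CPM in delayed and immediate macrophages and 47.3 and 32.9 CPM in the Schwann cell fraction, with 1 of 7 delayed and 2 of 8 immediate libraries above 100 CPM in each. The stump did not show these levels, with Cap1 at 254 to 356 CPM after delayed and 187 to 359 CPM after immediate repair. In the 2 delayed animals of low Cap1, macrophages held Heca at 5.15 and 7.15 CPM, Qk at 69.5 and 86.8 CPM and Znrf2 at 6.77 and 10.5 CPM, all below the lowest immediate library. Ranbp9 at 6.21 and 10.7 CPM and Egln1 at 8.72 and 11.6 CPM were below it in 1 of the 2 animals. Apc was at 21.7 and 21.9 CPM and Nfix at 1.28 and 2.14 CPM, the latter the highest of the 9 delayed libraries. The part of Cap1 in the differences was not tested. A fit with Cap1 as a covariate cannot tell Cap1 from repair, since Cap1 went largely with the repair groups of day 5. In that fit the median over the genes was -1.63 in macrophages and -1.79 in the Schwann cell fraction. Single genes moved more, with Znrf2 at -3.12 (SE 0.74) and Usp7 at -1.11 (SE 0.31) in macrophages and Heca at -2.98 (SE 0.67) in the Schwann cell fraction.

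In sorted cells, where few or no genes passed at all, the partners of these genes did not pass either. Of the other pathway members listed, 0 of 118 passed in macrophages and 0 of 118 in the Schwann cell fraction at day 5 with edgeR, where 0.0357% and 0% of all genes passed, with 8 and 5 at an unadjusted p under 0.05 (435 of 8409 and 505 of 9604 over all genes). At day 14 these counts were 0 of 117 and 0 of 126, with 4 and 4 at an unadjusted p under 0.05 (190 of 8589 and 373 of 10226 over all genes). In macrophages at day 5 the medians of lists with at least 10 genes tested ran from -0.06 to 0.07, against 0.01 over all genes. Of 17 oxygen sensing genes 7 were lower, with a median of 0.06, and of 20 other genes of SAGA and the related ADA2 complex 10 were lower, with a median of 0.03. Of 10 CTLH genes 5 were lower (median 0.01), and of 12 Wnt and destruction complex genes 8 were lower (median -0.06), from -0.65 for Btrc upwards. For the Schwann cell fraction at day 5, 7 of 16 oxygen sensing genes were lower with a median of 0.19. There 14 of 20 SAGA and ADA2 genes were lower with a median of -0.09, 9 of 13 genes of USP7 and p53 with a median of -0.19, and 9 of 14 Wnt genes with a median of -0.09, against -0.01 over all genes.

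The last lists served as checks on how the cells and libraries were handled. Genes of the isolation response, the early genes that dissociation of tissue induces, had a median of 0.07 over 18 genes in macrophages at day 5, with 5 lower, and 0.06 over 18 with 8 lower in the Schwann cell fraction. Nuclear-retained long noncoding RNAs had a median of 0.16 over 6 genes in macrophages and -0.16 over 6 in the Schwann cell fraction.

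In the distal stump 24 of 132 partners passed, a smaller share than the 26.3% of all genes tested, so the calls of single partners that follow are values of those genes and not results about the lists. Of 17 oxygen sensing genes 3 rose and 0 fell, namely Pfkfb3, a glycolytic target of hypoxia-inducible factors (0.67, adjusted p = 0.000664), Epas1, which encodes HIF-2α (0.82, adjusted p = 0.0123), and Arnt, its partner (0.27, adjusted p = 0.0361). Of 21 SAGA and ADA2 genes Atxn7 rose (0.29, adjusted p = 0.0336) while Usp22 (-0.28, adjusted p = 0.0177) and Supt3 (-0.45, adjusted p = 0.0203) fell. Of 20 SWI/SNF genes 2 rose, Smarca2 among them (0.35), and 3 fell, Smarcd1 (-0.59) and Ss18 (-0.32) among them. Of 18 Wnt genes 3 rose, among them Tcf7l2 (0.73) and Lrp5 (0.44), and Fbxw11, which encodes a ligase of beta-catenin, fell (-0.34). The SAGA and ADA2, SWI/SNF and Wnt lists thus held calls of either sign, as did the 10 genes.

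For the ubiquitin ligases, Rmnd5a (0.33, adjusted p = 0.00114) and Armc8 (0.15, adjusted p = 0.0439) of the CTLH complex rose with Ranbp9, while Gid4, its substrate receptor, fell (-0.41, adjusted p = 0.0172), of 10 genes tested. Of 15 genes of USP7 and p53, Sesn1 rose (0.55) and Uhrf1, a DNA methylation factor that USP7 stabilises, fell (-0.80). Of 16 splicing regulators Ptbp3 and Mbnl1 rose (0.48 each) and Khdrbs3 fell (-0.97). Nfib rose (0.44, adjusted p = 0.00608), as did Nfix, and the other 2 nuclear factor I genes tested did not pass. Of 11 genes of headcase, unkempt and mTORC1, 0 passed in edgeR and 3 were at an unadjusted p under 0.05 (4706 of 12229 over all genes). Of the 2 other ZNRF genes 0 passed and 0 were at that p. Of 9 nuclear-retained noncoding RNAs Tug1 (0.18) and Kcnq1ot1 (0.31) rose, and of 17 isolation response genes Atf3 (-1.86) and Jun (-0.77), both also genes of the injury response of Schwann cells, fell.

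The level of a gene in the Schwann cell fraction relative to macrophages of the same animals was tested with the animal as a block, over 16 animals at day 5 and 15 at day 14. In this comparison 64.5% of 10074 genes passed at day 5 (32.7% higher and 31.9% lower in the Schwann cell fraction), so calls of single genes are common. Of the 10 genes, 6 passed at day 5. Arid2 (1.30, SE 0.17, adjusted p = 1.6e-06), Nfix (1.404, SE 0.37, adjusted p = 0.00304), Tada2b (1.01, SE 0.25, adjusted p = 0.00201) and Heca (0.93, SE 0.37, adjusted p = 0.033) were higher in the Schwann cell fraction. Nfix and Tada2b did not pass the filter in macrophages of day 5 alone. They entered this test only through the Schwann cell fraction, so their calls at day 5 are given as values only. Znrf2 (-1.06, SE 0.35, adjusted p = 0.013) and Qk (-0.65, SE 0.20, adjusted p = 0.00947) were higher in macrophages. The call of Heca was lost without any one of delayed animal 3 and immediate animals 1, 4 and 7 (adjusted p = 0.0506 to 0.0648 in edgeR), and Egln1 (-0.51, adjusted p = 0.128) passed without delayed animal 1 (adjusted p = 0.0412). Since this fraction held many dendritic cell transcripts, these differences are between the sorts.

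At day 14, 63.3% of 10596 genes passed (34% higher and 29.3% lower), and again 6 of the 10. Nfix (1.51, SE 0.23, adjusted p = 1.3e-05) and Arid2 (0.54, SE 0.14, adjusted p = 0.0032) were higher in the Schwann cell fraction, and Znrf2 (-1.33, SE 0.11, adjusted p = 8.2e-09), Qk (-0.75, SE 0.10, adjusted p = 4.2e-06), Egln1 (-0.71, SE 0.13, adjusted p = 0.000101) and Usp7 (-0.48, SE 0.20, adjusted p = 0.0452) in macrophages. Thus Arid2 passed as higher in the Schwann cell fraction at both days. Nfix did so too, but at day 5 it entered the test only through that fraction. Znrf2 passed as higher in macrophages at both days, as did Qk except in the analyses named next. The call of Usp7 was lost without any one of delayed animals 2, 3, 6, 7 and 8 or immediate animals 1, 2 and 5 (adjusted p = 0.0564 to 0.0898 in edgeR). Scaling by library size alone moved the median of all genes from -0.04 to 0.20 at day 5 and from 0.04 to 0.40 at day 14, and the share of higher among called genes from 50.6% to 63.5% and from 53.7% to 73.4%. Under it Qk at day 5 (-0.41, adjusted p = 0.0915) and Usp7 at day 14 (-0.12, adjusted p = 0.625) no longer passed, while Heca (0.45, adjusted p = 0.0251) and Apc (0.54, adjusted p = 0.0343) passed at day 14. Without the animal as a block Qk at day 5 (-0.60, adjusted p = 0.112) and Usp7 at day 14 (-0.40, adjusted p = 0.0685) did not pass either.

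Between females and males 0 of the 10 genes passed in edgeR or DESeq2 in any kind of library, where 2.26% of genes passed in macrophages, 0.0732% in the Schwann cell fraction and 0.0654% in the stump with edgeR. All 10 were lower in females in the Schwann cell fraction, where 45.6% of all genes were lower. Their median was -0.40 (log2) against 0.03 over all genes. Ranbp9 had the smallest p (-0.87, SE 0.23, unadjusted p = 0.000758, adjusted p = 0.331). Heca (-0.75) and Qk (-0.48) were also under an unadjusted p of 0.05, as were 917 of 10923 over all genes. In macrophages 5 of the 10 were lower (45.8% of all genes) and 0 were at an unadjusted p under 0.05 (2058 of 8949 over all genes). In the stump 7 of the 10 were lower (49.4% of all genes). There Znrf2 alone was at that p (-0.22, unadjusted p = 0.0271), against 1780 of 12229 over all genes.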

How the data were processed

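RNA was sequenced from sorted macrophages, the Schwann cell fraction and the distal stump. The tables hold estimated counts per gene as deposited, neither scaled nor filtered, and 0.951 to 1.18% of values were not whole and were rounded. Per the submitters' processing notes and the study's methods, the authors used cutadapt 1.8, TopHat2 2.1.1 on mm10 with UCSC genes, Cuffnorm and Cufflinks 2.2.1. The program that wrote the counts is not given in the sources used here. Sorted cells gave amplified cDNA (SMART-Seq v4), whose amplification can favour some transcripts, and the stump rRNA-depleted RNA with a directional kit, so levels were not compared between them.

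The 10 genes and all lists were chosen with earlier results of these data known. Within each comparison a gene had to reach 5 CPM in 6 or more libraries before it was tested. TMM-scaled counts were fitted with edgeR 4.0.16 (R 4.3.3) and its quasi-likelihood test, with no covariate except the animal as a block between cell types, and Benjamini-Hochberg adjusted p-values under 0.05 were called. The study filtered after its own test. SE is the log2 difference over the square root of F. Correlations used log2(CPM + 1) and, between cell types of an animal, 1e+05 permutations (2-sided). No test was made on the contrasts that chose the genes. Groups, replicates and sex follow the labels, and each animal is a separate mouse. The named genes were all 10 in each comparison, up to 3 called genes of smallest p of each pathway list in the stump, the closest gene to each of the 10, defining markers and Cap1. The 5 genes low in both sorts, and the lowest gene of a list named in macrophages, were named after their values were seen.

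Alternatives were DESeq2 1.42.0, scaling to library totals, filterByExpr, no filter, a sex term, blocking on replicate number, limma-voom (limma 3.58.1), Cap1 as a covariate, a joint model of both days, and omitting single libraries. The level of GC-rich genes as a covariate and omission of the libraries of low Sox10 were added after the data were seen. Base composition was computed from 1 annotated GENCODE transcript a gene. The tests were also run on simulated data, with changes placed only on the more abundant genes. That run did not cover levels as low as those of Nfix and Tada2b in macrophages.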

Additional observations from a re-analysis of the deposited data

Results flagged for a closer look

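In 6 of the 100 groups tested (10 genes in 10 groups), 1 library stood farther from its neighbour, relative to the range of the group, than Dixon's 95% limit allows, and chance alone gives about 1 in 20. Egln1 was at 70.4 CPM in immediate stump replicate 1, against 49.7 to 56.5 CPM in the others of the group. Heca was at 1.90 CPM in delayed macrophage replicate 1 of day 5, against 4.73 to 8.70 CPM. At day 14 Ranbp9 was at 20.3 CPM in delayed macrophage replicate 4, against 40.3 to 54.7 CPM, and Znrf2 at 42.0 CPM in immediate macrophage replicate 7, against 69.6 to 87.6 CPM. In the Schwann cell fraction of day 14, Znrf2 was at 57.8 CPM in delayed replicate 3, against 32.1 to 40.8 CPM, and Usp7 at 14.0 CPM in immediate replicate 5, against 36.2 to 67.7 CPM.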

How the results depend on the processing

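The median difference over the genes tested kept its direction in the day 5 contrasts that chose them under the alternatives run. In macrophages 8 of the 10 were tested in the reported analysis, and up to 10 where the filter or the set of libraries differed. The median ran from -1.63 to -1.14 in macrophages and -1.79 to -1.35 in the Schwann cell fraction at day 5 (-1.58 to -1.25 and -1.62 to -1.33 with each library left out). At day 14 it was 0.19 to 0.28 (0.14 to 0.31) and -0.12 to -0.02 (-0.08 to 0.05). In the Schwann cell fraction of day 14 its sign changed without immediate replicate 1. The interactions ran from 1.45 to 1.95 and from 1.18 to 1.55. In the stump the 7 calls became 4 with library size scaling, 3 with no filter and 3 with the replicate number as a block, and 3 to 8 with 1 library left out. They were 3 without delayed replicate 4 or immediate replicate 2, 7 or 8, and 4 without immediate replicate 6. The cause was not tested. Under the block Apc (adjusted p = 0.00728), Qk (0.0339) and Ranbp9 (0.031) were called, and Arid2 (0.0561), Znrf2 (0.0796), Nfix (0.101) and Usp7 (0.104) were not, with 2178 genes called. The numbers were not taken to pair animals of the repair groups, since the labels give different animals and not every pair correlated over 0.1. Same-numbered libraries did so in 1 of 7 stump pairs, 7 of 8 and 6 of 7 macrophage pairs (days 5 and 14) and 3 of 7 and 3 of 7 in the Schwann cell fraction, and 1, 3, 5, 2 and 1 correlated best with their own number. Genes called numbered 0 to 17 in macrophages and 0 to 14 in the Schwann cell fraction at day 5, 0 to 9 in either interaction, 0 to 3 in the Schwann cell fraction at day 14, 2178 to 5170 in the stump, and for sex 99 to 663, 7 to 34 and 8 to 76. Between the sorts 5 to 7 of the 10 were called. Nfix and Tada2b are limited by their low level, under 5 CPM in delayed macrophages of day 5, and by the filter at that level.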
